A study of Mus musculus with 2 samples.

Results

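Guanylate-binding proteins are a family of large GTPases, and 9 of their genes were followed here in mouse pancreas: Gbp2, Gbp2b, Gbp3, Gbp4, Gbp5, Gbp6, Gbp7, Gbp8 and Gbp9. They were chosen by symbol alone, and each symbol named 1 of the 31253 gene rows of the deposited count matrices. Gbp10, a near copy, is also among the rows and is given beside them. Gbp11, another near copy, was not found among the rows by its symbol and was read only for shared sequence. All 9 members held UMIs (unique molecular identifiers, each standing for 1 captured RNA molecule) in both libraries.

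The genes are held low in resting cells and are switched on mainly by interferon gamma, through the receptor chains Ifngr1 and Ifngr2 and the transcription factor Irf1, and also by type I interferon. Their proteins bind and hydrolyse guanine nucleotides, assemble on the membranes of vacuoles and of bacteria in the cytosol, and help to open these membranes and to trigger caspase-driven inflammasomes. Gbp2, Gbp2b and Gbp5 end in a motif to which a lipid anchor is attached. T and natural killer cells are the best known source of interferon gamma, and macrophages are the cells in which the family has been studied most.

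Single-cell RNA was captured from pancreas on the BD Rhapsody system, which tags RNA on beads in microwells. The CP+EVs library came from animals given Cae and extracellular vesicles, and the CP library from animals given Cae alone, so both groups carried the Cae treatment. No untreated pancreas was analysed here, and the labels give no strain, age or number of animals per library. Both libraries carry a condition label of acute pancreatitis, whereas the series title speaks of chronic pancreatitis, of vesicles induced by exercise and of STING and interferon signalling. With 1 library per group there was no replicate and no test. Every interval below covers counting error only, and every difference is one between these libraries.

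The CP+EVs library held 8845 barcodes and 38532775 UMIs with a median of 2884 UMIs per barcode, and the CP library held 13507 barcodes and 51652425 UMIs with a median of 1417. Barcodes were sorted into classes by UMIs of marker genes, and 14 classes reached 50 barcodes in at least 1 library, 8 of them in both. Monocyte or macrophage barcodes numbered 555 in CP+EVs and 2972 in CP, fibroblasts 1815 and 3533, B cells 843 and 369, T cells 534 and 620, plasma cells 81 and 84, dendritic cells 81 and 173, and mesothelial cells 71 and 65. Own markers stood more than 2-fold over the library level for at least 9 of 10 listed markers in ductal barcodes, 11 of 13 in B cells and nearly all in the other classes. The sorting used these same markers, so this is no independent check of the classes. Mesothelial and acinar barcodes also carried many markers of other cells. Mesothelial barcodes held 12187 CPM of fibroblast markers in CP+EVs and 21579 CPM in CP, and 875 and 458 CPM of ductal markers. The 76 acinar barcodes of CP, at a median of 831 UMIs, held 9553 CPM of fibroblast markers and 4241 CPM of neutrophil markers. These acinar barcodes are not used for a direction below. CPM is UMIs of a gene per 1000000 UMIs of the class in that library. A total of 118 barcode sequences occurred in both libraries. Barcodes carrying markers of unrelated classes, 924 in CP+EVs and 1054 in CP, were set aside as mixed.

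RNA outside its own cells was present in both libraries. Marker lists of unrelated classes reached 7.29 to 32.7% of their library level in the CP+EVs classes, with a median of 13.3%, and 8.25 to 62.6% in the CP classes, with a median of 16.2%. The 62.6% was that of neutrophil markers in the CP acinar barcodes, and the next highest CP value was 47.1%, in eosinophils. Fibroblast markers were not among the lists counted for mesothelial barcodes. Acinar enzyme and Reg genes took 17.1% of all UMIs in CP+EVs and 0.0814% in CP.

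The 9 members lie in 2 clusters of the mouse genome (GRCm38, GENCODE vM21). On chromosome 3, plus strand, Gbp5, Gbp7, Gbp3, Gbp2b and Gbp2 follow each other within chr3:142493978-142638008. Gbp2b (chr3:142594847-142619179, ENSMUSG00000040264) and Gbp2 (chr3:142620602-142638008, ENSMUSG00000028270) are direct neighbours. On chromosome 5, minus strand, Gbp8, Gbp9, Gbp4 and Gbp6 lie within chr5:105014150-105293698. The annotated bodies of Gbp8 (chr5:105014150-105139540), Gbp9 (chr5:105077630-105139539) and Gbp4 (chr5:105115767-105139586) overlap one another on the same strand.

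Shared sequence between the copies bears on how far each count can be trusted. Of all 50-base stretches of the coding transcripts, 70.2% of those of Gbp6 also occur in another copy, chiefly Gbp10, with which it shares 62.3%. The share was 20.2% for Gbp8, 10.99% for Gbp4 and 7.48% for Gbp9. It was 2.07% for Gbp2 and 1.84% for Gbp2b, all with each other, 3.83% for Gbp3, 2.26% for Gbp7 and 0% for Gbp5. In the last 1000 bases, nearest to the tail by which RNA is captured, 61.7% of the stretches of Gbp6 were shared. Gbp2 and Gbp2b shared none there with each other, the other members, Gbp10 or Gbp11. Only coding transcripts of these genes were compared. Gbp2-ps, an annotated pseudogene at chr3:142658948-142669041, was left out, so stretches shared with it were not tested. Counts of Gbp6, and to a lesser degree of Gbp4 and Gbp8, are therefore uncertain. Counts of Gbp2, Gbp2b, Gbp5 and Gbp7 are much less exposed to the copies compared. The labels do not say how reads that map to several genes were counted.

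RefSeq promoters (GRCm38.p6) were at hand for 5 of the 9 members, Gbp2, Gbp2b, Gbp3, Gbp5 and Gbp7. Their start sites are those of RefSeq and can differ from the GENCODE bounds given above. The Gbp2 window ends at 142620662, past the GENCODE start at 142620602. The Gbp5 window lies wholly inside the GENCODE body, which starts at 142493978. Those of Gbp2 and Gbp2b are shown because these neighbours had very different levels, and that of Gbp5 because it carried both motifs searched. Each line holds the 250 bases before the start site, 5′ to 3′ on the plus strand, and capitals mark matches to the core of the interferon-stimulated response element, GAAANNGAAA on either strand (TTTCNNTTTC in reverse), or to the core of the gamma-activated site, TTCNNNGAA, which reads the same on both strands.
Gbp2, chr3:142620413-142620662: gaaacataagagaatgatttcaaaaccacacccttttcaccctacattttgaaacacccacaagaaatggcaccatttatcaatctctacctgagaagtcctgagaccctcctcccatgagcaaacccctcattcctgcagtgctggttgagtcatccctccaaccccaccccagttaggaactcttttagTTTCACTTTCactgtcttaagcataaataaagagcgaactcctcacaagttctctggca
Gbp2b, chr3:142594597-142594846: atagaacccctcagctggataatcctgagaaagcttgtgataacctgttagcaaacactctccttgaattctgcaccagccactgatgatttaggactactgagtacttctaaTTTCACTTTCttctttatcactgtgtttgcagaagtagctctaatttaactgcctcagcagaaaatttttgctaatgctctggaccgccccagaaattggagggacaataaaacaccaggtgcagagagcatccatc
Gbp5, chr3:142496684-142496933: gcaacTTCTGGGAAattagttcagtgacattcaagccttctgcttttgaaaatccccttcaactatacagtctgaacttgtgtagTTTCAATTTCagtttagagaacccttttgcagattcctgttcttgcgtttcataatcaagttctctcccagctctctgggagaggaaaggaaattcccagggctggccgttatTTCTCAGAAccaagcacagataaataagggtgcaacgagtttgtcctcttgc
Gbp2 and Gbp2b carried the same 10 letters, TTTCACTTTC, at 50 to 59 bases before the start in Gbp2 and at 128 to 137 bases in Gbp2b. Neither promoter held TTCNNNGAA. Gbp5 held 1 match to the first motif and 2 to the second, as did Gbp7, and 1 of the 2 promoters listed for Gbp3 held 2 overlapping matches to the first. Of 32851 promoter windows of this length, 2.98% held the first motif and 7.02% the second. A match is a string of letters and not a shown binding site.

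Summed over the 9 members, mesothelial cells, the lining of the pancreas surface, had the highest level in both libraries. The lowest levels were those of germinal centre B, ductal, plasma and acinar barcodes in CP+EVs and of plasma, eosinophil and dendritic barcodes in CP. In CP+EVs the summed level was 3034 CPM in mesothelial cells (95% counting interval 2898 to 3176), 1690 in endothelial cells (1570 to 1816), 1081 in monocytes or macrophages (1049 to 1114) and 789 in fibroblasts (772 to 806). T cells followed with 760 CPM (722 to 799), dendritic cells with 668 (602 to 740) and natural killer cells with 649 (542 to 772). The intervals of fibroblasts and T cells overlapped, as did those of T, dendritic and natural killer cells, so these neighbours in the order were not separated. B cells stood at 325 CPM (307 to 344). Acinar cells at 186, plasma cells at 186, ductal cells at 140 (110 to 176) and germinal centre B cells at 102 CPM (86.9 to 119) came last. These 4 lay at 16.2 to 29.5% of the library level, inside the range that unrelated markers reached over all CP+EVs classes. In acinar and ductal barcodes themselves such lists reached 31.6 and 32.7%, so their own expression could not be told from free RNA. In plasma barcodes they reached 24.8%, against 29.4% for the family, and in germinal centre B barcodes 13.4%, against 16.2%. These 2 classes thus stood above their own lists but within the range over all classes.

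In CP the order below mesothelial cells was another one. Mesothelial cells had 1926 CPM (1783 to 2078), T cells 801 (763 to 839) and B cells 489 (446 to 535). Neutrophils at 413 CPM (396 to 432), fibroblasts at 400.2 (391 to 410) and monocytes or macrophages at 386 (376 to 396) stood next to each other with overlapping intervals. Dendritic cells had 211 CPM (186 to 239), eosinophils 157 (112 to 214) and plasma cells 133 (112 to 156), which was 30.5 to 48.4% of the library level. This lay within the range of free RNA over all CP classes, for dendritic cells only through the acinar barcodes. In the dendritic class itself unrelated lists reached 8.25 to 20.1%. T cells were second in CP, and macrophages, the cells best known for this family, were not above fibroblasts there. Endothelial, natural killer, ductal and germinal centre B classes held fewer than 50 barcodes in CP, and neutrophil and eosinophil classes fewer than 50 in CP+EVs.

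**Figure D1:**
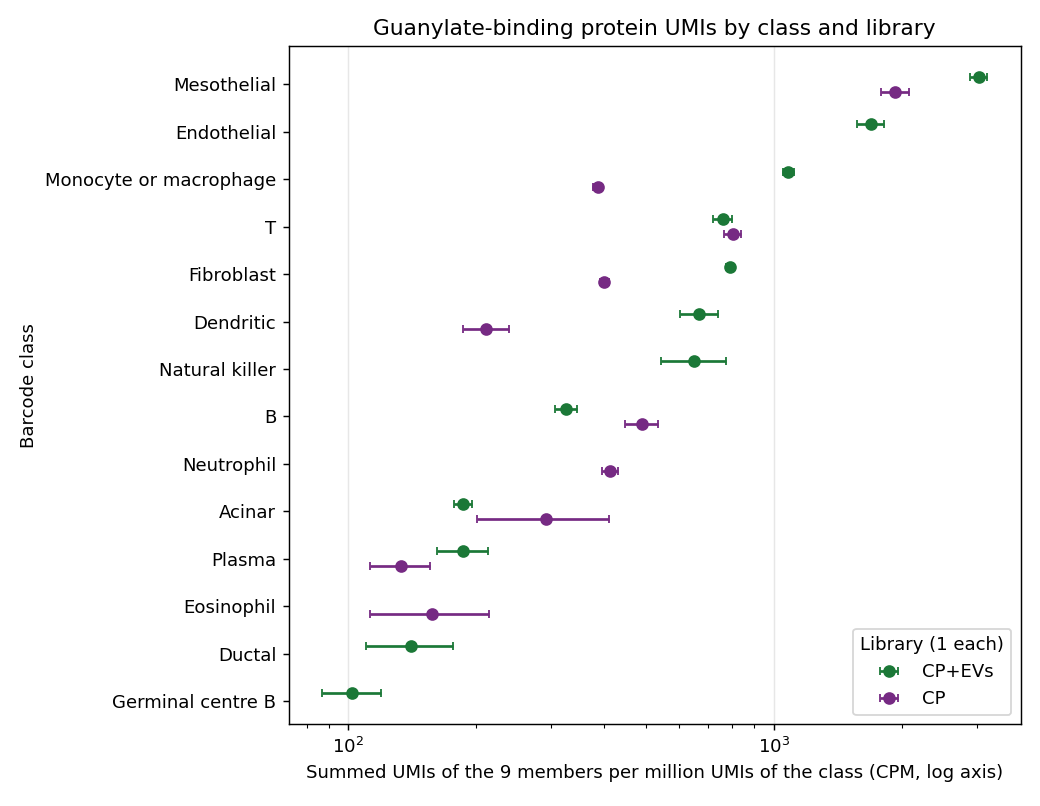
Summed CPM of the 9 members on a log axis, by barcode class, with CP+EVs above CP. Points are single libraries and bars are exact Poisson 95% intervals, and classes under 50 barcodes in a library are left out. Mesothelial cells lead in both libraries, with 3034 CPM in CP+EVs and 1926 CPM in CP.

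UMIs were not corrected for transcript length, so the share of the family's UMIs that a member took is compared between classes and not between members. Gbp2, whose protein is recruited to parasite vacuoles, took 68.3% of the family's UMIs in mesothelial cells of CP+EVs and 65.0% in those of CP. In fibroblasts it took 50.3% in CP+EVs and 43.1% in CP. In T cells the share was 22.1% and 19.8%, and in endothelial cells of CP+EVs 21.4%. The 4 chromosome 5 members together went the other way. They took 36.5% of the family's UMIs in T cells of CP+EVs and 32.7% in those of CP, and 33.8% and 32.1% in B cells, against 8.13% and 8.82% in mesothelial cells and 11.4% and 14.2% in fibroblasts. Lymphocytes thus carried a larger part of their family UMIs from the chromosome 5 cluster than mesothelial cells or fibroblasts did, in each library alone.

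**Figure D2:**
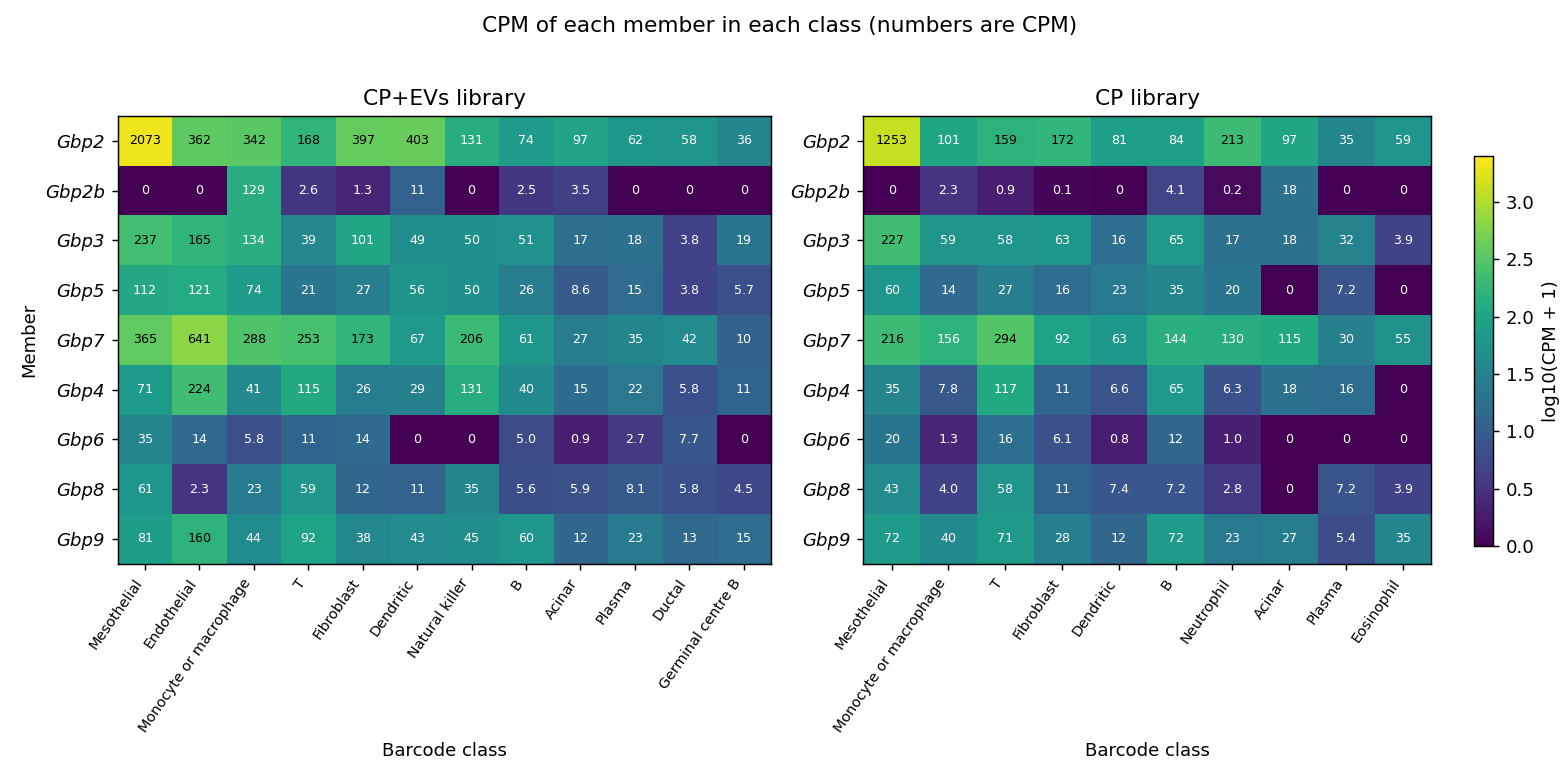
CPM of each member (rows, chromosome 3 members above chromosome 5 members) in each class (columns), CP+EVs left and CP right. Colour is log10(CPM + 1) and the printed numbers are CPM. Gbp2 is brightest in mesothelial cells of both libraries, Gbp7 and Gbp4 in endothelial cells of CP+EVs, and Gbp2b is at or near 0 outside monocytes or macrophages of CP+EVs.

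Gbp2 in mesothelial cells reached 2073 CPM (1961 to 2191) in CP+EVs and 1253 CPM (1138 to 1376) in CP. The next highest class was dendritic at 403 CPM (351 to 459) in CP+EVs and neutrophil at 213 CPM (200.4 to 226) in CP. A single dendritic barcode held 86 of the 223 UMIs behind the first of these values, and without it dendritic cells had 251 CPM (211 to 297), below fibroblasts at 397, endothelial cells at 362 and monocytes or macrophages at 342 CPM. Mesothelial barcodes with a Gbp2 UMI made up 90.1% of 71 barcodes in CP+EVs (exact 95% interval 80.7 to 95.9) and 67.7% of 65 in CP (54.9 to 78.8), at median depths of 6652 and 1170 UMIs. Thinned to 1000 UMIs per barcode, which left out 8 and 26 shallower barcodes, the shares were 71.4% (58.6 to 82.1) in CP+EVs and 64.1% (47.2 to 78.8) in CP. In plasma cells, where the family was within the free RNA range over all classes, the thinned share was 6.33% in CP+EVs and 1.22% in CP.

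Gbp2b, also known as Gbp1, was found almost wholly in monocytes or macrophages of CP+EVs. It had 129 CPM there (118 to 141, 513 UMIs) and 2.26 CPM in CP (1.56 to 3.16, 34 UMIs), a 57.2-fold higher level in CP+EVs (40.4 to 83.5). Of 555 such barcodes in CP+EVs 21.1% held a Gbp2b UMI (17.8 to 24.7), and of 2972 in CP 0.538% (0.308 to 0.873). Thinned to 1000 UMIs, the shares were 7.21% (5.10 to 9.85) and 0.0949% (0.0115 to 0.342). Fibroblasts, at a similar depth in CP+EVs (medians of 5617 UMIs in monocytes or macrophages and 5258 in fibroblasts), gave a thinned share of 0.265% there. The most UMIs in 1 barcode was 35 in CP+EVs and 11 in CP. The labels give no strain, and induction of this gene is known to differ between inbred mouse strains, so strain and treatment cannot be told apart for this difference.

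The level of Gbp2b was alike in both gates that make up the class: 131 CPM (119 to 144) in CP+EVs and 2.37 in CP under the monocyte markers, and 122.8 CPM (99.1 to 150) and 2.06 under the macrophage markers. Within the class, 346 CP+EVs barcodes with at least 10 UMIs of Retnla and Lyz1, a split made after the values were seen, had 158 CPM (144 to 173), and the 209 others had 22.4 CPM (13.5 to 35.1), at median depths of 7696 and 3491 UMIs. In CP the same split gave 1 Gbp2b UMI in 64 barcodes with these genes and 33 UMIs in 2908 without. Dendritic cells had 6 UMIs in CP+EVs and 0 in CP, where a count of 0 allows up to 2.47 CPM. In fibroblasts 14 UMIs in CP+EVs and 2 in CP gave 1.27 and 0.109 CPM.

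No Gbp2b UMI was seen in mesothelial cells of either library, where Gbp2 held 1260 UMIs in CP+EVs and 435 in CP. A count of 0 allows up to 4.94 CPM in CP+EVs and 8.64 CPM in CP at 3 counts. Gbp2b was thus at 0 in the class where Gbp2 was highest. Endothelial, natural killer, plasma, ductal and germinal centre B barcodes of CP+EVs also held 0.

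**Figure D3:**
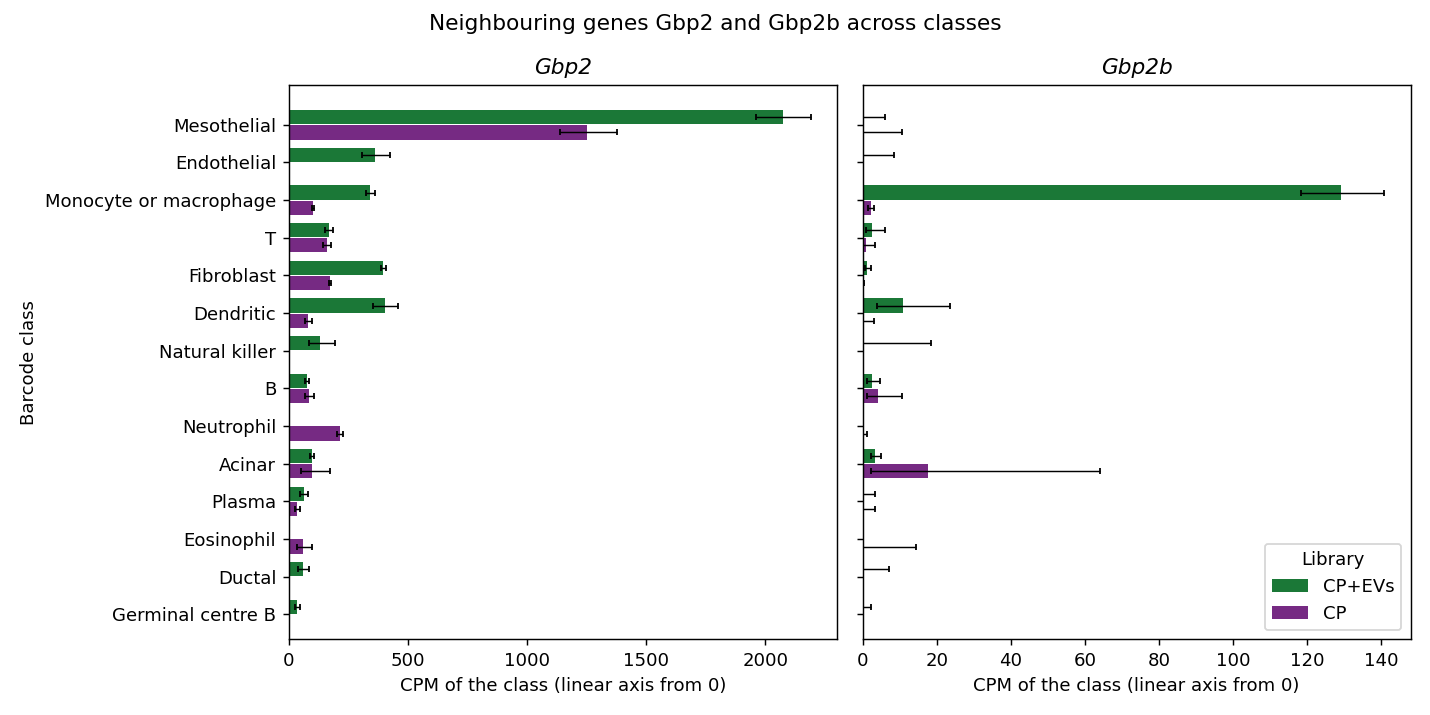
CPM of Gbp2 (left) and of its neighbour Gbp2b (right) by class on linear axes of different length, with CP+EVs above CP. Bars start at 0 and lines are exact Poisson 95% intervals. Gbp2 peaks in mesothelial cells in both libraries, and Gbp2b stands at 129 CPM in monocytes or macrophages of CP+EVs against 2.26 CPM in CP. The CP acinar bar of Gbp2b rests on 2 UMIs.

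Gbp7, whose protein in macrophages binds parts of the phagocyte oxidase, was spread over more classes. Endothelial cells of CP+EVs had 641 CPM (568 to 721), followed by mesothelial cells with 365 (319 to 417). T cells had 253 CPM (232 to 277) in CP+EVs and 294 CPM (272 to 318) in CP, the highest of all classes in CP. Gbp3 was highest in mesothelial cells, at 237 CPM in CP+EVs (199.8 to 279) and 227 CPM in CP (180 to 284). In CP 1 barcode held 29 of the 79 UMIs, and without it the CP level was 169 CPM (125.5 to 223), a ratio of 1.40-fold (1.009 to 1.97). Without the top barcode of CP+EVs alone the ratio was 0.986-fold (0.741 to 1.32), and without both 1.33-fold (0.952 to 1.87). No direction is read for Gbp3 there. Gbp5, which promotes NLRP3 inflammasome assembly in macrophages, had 121 CPM (90.9 to 159) in endothelial and 112 CPM (86.9 to 142) in mesothelial cells of CP+EVs, and 60.5 CPM (37.4 to 92.4) in mesothelial cells of CP.

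Of the chromosome 5 members, Gbp4 stood highest in endothelial cells of CP+EVs at 224 CPM (182 to 273). It had 131 CPM (85.5 to 192) in natural killer cells of CP+EVs, and in T cells 115 CPM (100.1 to 131) in CP+EVs and 117 CPM (103 to 132) in CP, where T cells led. Gbp8 was high in T cells, at 59.1 CPM in CP+EVs and 57.7 CPM in CP, and in mesothelial cells, at 60.9 and 43.2 CPM. Its overlapping neighbours were high in endothelial cells, but Gbp8 itself held 1 UMI there. Gbp9 had 160 CPM (125 to 203) in endothelial cells of CP+EVs and 92.0 CPM in T cells of CP+EVs against 71.2 CPM in T cells of CP. Gbp6 never exceeded 34.6 CPM, in mesothelial cells of CP+EVs, and had 20.2 CPM in those of CP on 7 UMIs. Gbp10 held at most 26 UMIs in any class.

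Between the libraries, the family was higher in CP+EVs in monocytes or macrophages, dendritic cells, fibroblasts and mesothelial cells. In monocytes or macrophages the summed level was 1081 CPM in CP+EVs and 386 CPM in CP, 2.80-fold higher in CP+EVs (2.69 to 2.92). All 9 members were measured there, meaning at least 20 UMIs over both libraries, and 8 were at least 1.5-fold higher in CP+EVs and 0 lower, beside 14.7% of all 12045 measured genes at least 1.5-fold higher and 23.3% lower. The median log2 ratio was 2.12 over the members and -0.18 over all measured genes. After Gbp2b the largest differences were those of Gbp8, with 23.4 CPM in CP+EVs and 3.99 CPM in CP (5.87-fold, 4.20 to 8.27), Gbp4 with 40.8 and 7.78 CPM (5.25-fold, 4.11 to 6.71) and Gbp5 with 74.3 and 14.3 CPM (5.17-fold, 4.33 to 6.196). Gbp2 had 342 CPM in CP+EVs and 101 CPM in CP (3.39-fold, 3.14 to 3.64), and Gbp7 288 and 156 CPM (1.85-fold, 1.72 to 1.98). Gbp9 was the member that did not pass 1.5-fold, with 43.8 CPM in CP+EVs and 39.9 CPM in CP (1.10-fold, 0.921 to 1.30).

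The difference in monocytes or macrophages was present in every bin of barcode depth. It was 2.51-fold (2.05 to 3.04) among barcodes of 500 to 1999 UMIs, 2.75-fold (2.42 to 3.12) at 2000 to 4999, 2.48-fold (2.30 to 2.67) at 5000 to 9999 and 3.005-fold (2.85 to 3.17) at 10000 or more. Marker lists of other cells differed beside it: the 9 neutrophil markers summed to 102 CPM in CP+EVs and 1674 CPM in CP, all 9 lower in CP+EVs and none at 0. The 10 T cell markers summed to 182 CPM in CP+EVs and 81.9 CPM in CP, with 9 at least 1.5-fold higher, and the 14 acinar markers to 17021 CPM and 80.3 CPM, with Cela2a, Amy2a5 and Ptf1a at 0 in CP. Their part in the result was not tested. The parts of more RNA per cell and of another mix of monocytes and macrophages were not tested either.

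Dendritic cells, which present antigen to T cells, had 668 CPM in CP+EVs and 211 CPM in CP (3.16-fold, 2.69 to 3.73). In CP+EVs 1 barcode held 99 of the 370 UMIs, and without it the level was 497 CPM (440 to 560) and the ratio 2.36-fold (1.98 to 2.81). The CP level was 48.4% of the library level, where unrelated marker lists reached 8.25 to 20.1% in this class. Only in the CP acinar barcodes did such a list stand higher, at 62.6%. Of 6 members measured, Gbp2, Gbp3, Gbp4, Gbp5 and Gbp9 were at least 1.5-fold higher and 0 lower, beside 12.6% of measured genes higher and 20.1% lower. Gbp2 had 403 CPM (223 UMIs) in CP+EVs and 80.8 CPM (98 UMIs) in CP, and 251 CPM in CP+EVs without the barcode that held 86 of those UMIs (3.11-fold, 2.38 to 4.07). The other 8 members summed to 265 and 130 CPM (2.04-fold, 1.62 to 2.57). Gbp9, level in monocytes or macrophages, had 43.3 CPM in CP+EVs and 12.4 CPM in CP (3.503-fold, 1.76 to 7.18), and Gbp7 had 66.8 and 63.5 CPM (1.05-fold, 0.691 to 1.58). Gbp2b, Gbp6 and Gbp8 held under 20 UMIs. Monocyte markers summed to 1101 CPM in the dendritic class of CP+EVs and 2252 CPM in that of CP, 3 of 4 lower, neutrophil markers to 54.2 and 1365 CPM, and acinar markers to 15923 and 61.8 CPM. Their part in the result was not tested.

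**Figure D4:**
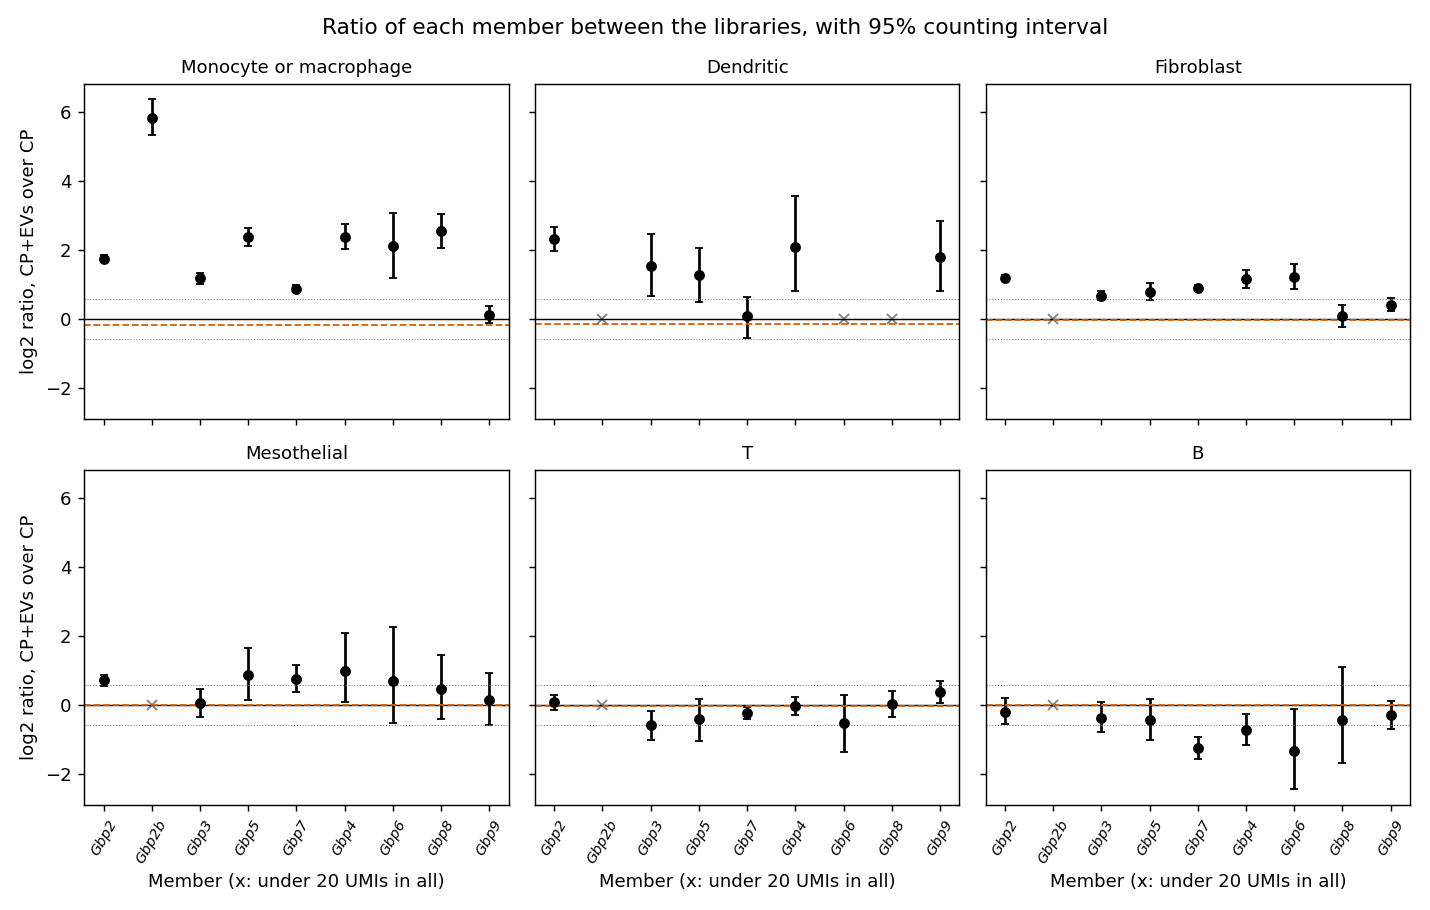
Log2 ratio of each member, CP+EVs over CP, in 6 classes. Lines are 95% counting intervals, dotted lines mark 1.5-fold, the dashed line is the median of all measured genes and a cross marks a member with under 20 UMIs over both libraries. The members lie above 0 in monocytes or macrophages, dendritic cells, fibroblasts and mesothelial cells, around 0 in T cells and below 0 in B cells.

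Fibroblasts, the matrix-making cells, had 789 CPM of the family in CP+EVs and 400.2 CPM in CP (1.97-fold, 1.91 to 2.03). Of 8 measured members 6 were at least 1.5-fold higher and 0 lower, beside 14.8% and 19.9% of 13564 genes. Gbp2 had 397 CPM in CP+EVs and 172 CPM in CP (2.30-fold, 2.197 to 2.41), Gbp4 25.6 and 11.4 CPM (2.24-fold, 1.87 to 2.69) and Gbp6 14.2 and 6.07 CPM (2.34-fold, 1.82 to 3.02). Gbp8 with 12.1 CPM in CP+EVs and 11.3 CPM in CP (1.07-fold, 0.855 to 1.34) and Gbp9 with 37.7 and 28.2 CPM (1.34-fold, 1.17 to 1.52) were under 1.5-fold. Median depth was 5258 UMIs per barcode in CP+EVs and 1067 in CP, and the ratio was not the same at all depths. It was 1.18-fold (1.06 to 1.31) at 2000 to 4999 UMIs, where CP+EVs had 660 CPM and CP 561 CPM, and 2.33-fold (2.24 to 2.42) at 10000 or more, where they had 870 and 374 CPM.

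Fibroblasts that held a UMI of Pi16 or Dpp4, genes of adventitial fibroblasts, had 806 CPM in CP+EVs (1245 barcodes) and 352 CPM in CP (1225 barcodes), a ratio of 2.29-fold (2.21 to 2.37). Those without had 692 CPM in CP+EVs and 549 CPM in CP, 1.26-fold (1.17 to 1.35), at median depths of 1406 and 801 UMIs. Barcodes with these genes had median depths of 6867 UMIs in CP+EVs and 8878 in CP. The split was thus also one by depth, and the parts of depth and fibroblast type were not tested. The neutrophil markers summed to 21.2 CPM in fibroblasts of CP+EVs and 1134 CPM in those of CP, 9 of 9 lower, with Ly6g at 0 in CP+EVs, and the macrophage markers to 107 and 397 CPM, 8 of 9 lower. Their part in the result was not tested.

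**Figure D5:**
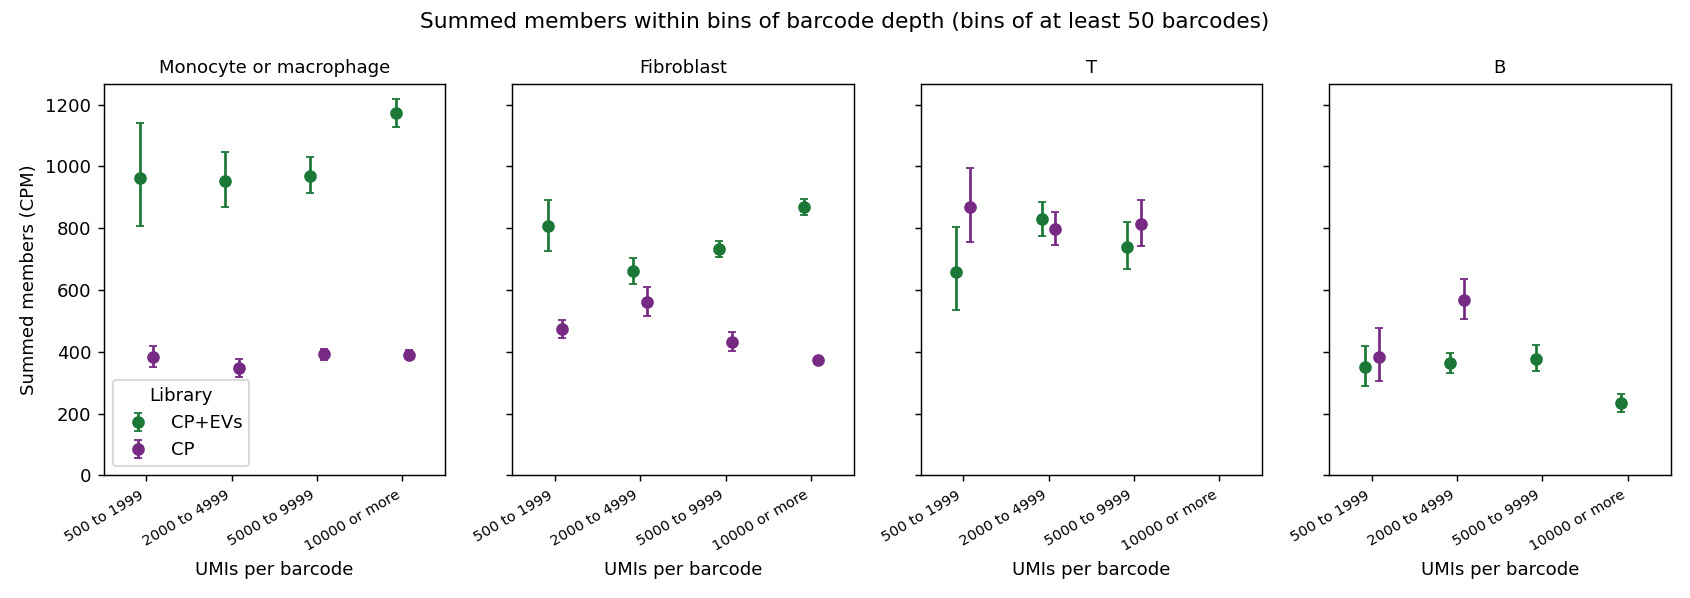
Summed members in CPM within bins of UMIs per barcode, in 4 classes, with CP+EVs left of CP in each bin. Lines are exact Poisson 95% intervals, and bins under 50 barcodes in a library are left out. The libraries stay apart in every bin in monocytes or macrophages, come closest at 2000 to 4999 UMIs in fibroblasts and overlap in all 3 bins in T cells.

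Mesothelial cells had 3034 CPM in CP+EVs and 1926 CPM in CP (1.58-fold, 1.44 to 1.72). Of 8 measured members, Gbp2, Gbp4, Gbp5, Gbp6 and Gbp7 were at least 1.5-fold higher and 0 lower, beside 16.5% of genes in each direction. Gbp6 rests on 21 UMIs in CP+EVs and 7 in CP, and its interval, 0.702 to 4.77, includes 1. Fibroblast markers summed to 12187 CPM in mesothelial barcodes of CP+EVs and 21579 CPM in those of CP. Their part in the result was not tested.

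In T cells the summed level was 760 CPM in CP+EVs and 801 CPM in CP (0.949-fold, 0.884 to 1.02), and 0 of 8 measured members were past 1.5-fold in either direction, beside 7.41% of genes higher and 10.5% lower. Gbp3 came closest, with 38.6 CPM in CP+EVs and 57.7 CPM in CP (0.669-fold, 0.495 to 0.898), and Gbp9 was on the other side, with 92.0 and 71.2 CPM (1.29-fold, 1.04 to 1.62). Barcodes with Cd8a or Cd8b1 and no Cd4 UMI had 744 CPM in CP+EVs and 805 CPM in CP, and those with Cd4 alone 819 and 856 CPM, so neither of these groups stood apart from the class.

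B cells had 325 CPM in CP+EVs and 489 CPM in CP (0.664-fold, 0.596 to 0.741). Without the CP barcode with the most family UMIs, 22 of 473, the ratio was 0.694-fold, inside the 1.5-fold limit. Without that of CP+EVs it was 0.650-fold (0.583 to 0.725), past the limit, and without both 0.679-fold (0.608 to 0.759), inside it. Of 8 measured members 0 were at least 1.5-fold higher and 3 lower, beside 14.9% of genes higher and 13.7% lower. Gbp7 had 61.2 CPM in CP+EVs and 144 CPM in CP (0.426-fold, 0.343 to 0.530), Gbp4 39.7 and 65.2 CPM (0.609-fold, 0.450 to 0.833) and Gbp6 5.03 and 12.4 CPM on 18 and 12 UMIs (0.405-fold, 0.185 to 0.923). Gbp2 had 74.1 CPM in CP+EVs and 83.8 CPM in CP, within counting error (0.884-fold, 0.687 to 1.148). Among barcodes of 500 to 1999 UMIs the summed levels were 350 CPM in CP+EVs and 383 CPM in CP (0.912-fold, 0.681 to 1.23), and at 2000 to 4999 UMIs 363 and 567 CPM (0.639-fold, 0.552 to 0.741). The macrophage markers summed to 94.7 CPM in B cells of CP+EVs and 348 CPM in those of CP and the neutrophil markers to 19.6 and 1113 CPM, with Csf3r, Mmp9 and Ly6g at 0 in CP+EVs. Their part in the result was not tested.

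Plasma cells, whose level was within the free RNA range over all classes, had 186 CPM in CP+EVs and 133 CPM in CP. Of 6 measured members 3 were higher (Gbp2, Gbp5 and Gbp9) and 1 lower (Gbp3), beside 8.01% and 27.4% of genes. Without the CP+EVs barcode that held 13 of its 69 UMIs there, Gbp2 was at 1.46-fold (0.955 to 2.26). Acinar barcodes had 186 CPM (1612 UMIs) in CP+EVs and 292 CPM (33 UMIs) in CP, beside 8.53% of genes higher and 65.8% lower. With enzyme UMIs filling the CP+EVs acinar total, no direction is read for them.

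The interferon gamma genes themselves were read from a list of 13. T cells held the largest share of the UMIs of Ifng, the cytokine, with 45.0% of 473 in CP+EVs and 71.1% of 311 in CP. Mixed barcodes held 20.1% in CP+EVs and 6.75% in CP, monocytes or macrophages 8.46 and 5.47%, natural killer cells 4.86 and 2.89%, and acinar barcodes 10.1% in CP+EVs. T cells had 109 CPM of Ifng in CP+EVs and 103 CPM in CP (1.07-fold, 0.878 to 1.29), so the T cell level did not differ beyond counting error. Monocytes or macrophages had 40 Ifng UMIs in CP+EVs and 17 in CP, 10.1 and 1.13 CPM, beside the higher T cell markers given above for that class.

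In monocytes or macrophages Ifngr1 had 301 CPM in CP+EVs and 490 CPM in CP (0.615-fold, 0.578 to 0.653), and Ifngr2 67.7 and 175 CPM (0.386-fold, 0.339 to 0.438). Irf1 had 499 CPM in CP+EVs and 270 CPM in CP (1.85-fold, 1.75 to 1.95) and Ciita, the regulator of MHC class II genes, 142 and 74.6 CPM (1.90-fold, 1.71 to 2.11). Over the list 3 of 13 were at least 1.5-fold higher (Ifng, Irf1, Ciita) and 3 lower (Ifngr1, Ifngr2, Irf8), beside 14.7% of all genes higher and 23.3% lower, so neither count stood apart from the background. The median log2 ratio was 0.09, and -0.18 over all genes.

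In fibroblasts 5 of 13 were higher (Ifng, Ifngr1, Irf1, Irf2, Nlrc5) and 0 lower, beside 14.8% and 19.9% of genes, and the median log2 ratio was 0.08 against -0.02 over all genes. Ifngr1 had 314 CPM in CP+EVs and 119 CPM in CP (2.63-fold, 2.49 to 2.78) and Irf1 278 and 113 CPM (2.46-fold, 2.33 to 2.61). Mesothelial cells had Ifngr1 and Irf1 higher of 8 measured, beside 16.5% of genes, with Irf1 at 464 CPM in CP+EVs and 245 CPM in CP. In B cells Irf1 had 254 CPM in CP+EVs and 361 CPM in CP (0.703-fold, 0.621 to 0.798), and in T cells 359 and 360.4 CPM.

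Immunity-related GTPases, a second family of interferon-induced GTPases that act on the same vacuoles, lay on the same side as the guanylate-binding proteins in most classes. In monocytes or macrophages 6 of 9 measured were at least 1.5-fold higher and 0 lower, beside 14.7% and 23.3% of all genes. Their median log2 ratio was 1.997. Iigp1 had 96.4 CPM there in CP+EVs and 20.1 CPM in CP (4.79-fold, 4.11 to 5.59). In fibroblasts 7 of 9 were higher and 0 lower (median 0.91), beside 14.8% and 19.9% of genes. Irgm1 was at 135 and 54.98 CPM and Iigp1 at 478 and 183 CPM in fibroblasts of CP+EVs and CP. In mesothelial cells 8 of 9 were higher (median 0.90), beside 16.5% of genes, with Irgm2 at 393 CPM in CP+EVs and 138 CPM in CP. In B cells 5 of 6 were lower and 1, Iigp1, was higher, beside 13.7% and 14.9% of genes. Irgm1 had 68.2 CPM in B cells of CP+EVs and 193 CPM in those of CP (0.353-fold, 0.290 to 0.429). In T cells 0 of 8 were higher and 1 was lower, beside 7.41% and 10.5% of genes, so the lower count did not stand apart from the background. It was Gm4841, with 10 UMIs in CP+EVs and 27 in CP. In dendritic cells 1 of 4 measured, Iigp1, was higher and 0 lower, beside 12.6% and 20.1% of genes.

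Of the type I interferon signalling genes, at most 1 was higher in any of the 4 classes where the family was, beside 12.6 to 16.5% of all genes. In monocytes or macrophages 0 of 11 were at least 1.5-fold higher and 4 were lower (Ifnar1, Ifnar2, Sting1, Tbk1), beside 14.7% and 23.3% of genes, with a median log2 ratio of -0.40, and -0.18 over all genes. Ifnar1, a receptor chain, had 68.2 CPM in CP+EVs and 148 CPM in CP (0.461-fold, 0.405 to 0.523), and Sting1, the adaptor of cytosolic DNA sensing, 74.5 and 113 CPM (0.657-fold, 0.578 to 0.743). In fibroblasts 2 of 11 were lower (Ifnar2, Sting1), with Sting1 at 21.0 CPM in CP+EVs and 51.5 CPM in CP, and 0 were higher, beside 19.9% of genes lower and 14.8% higher. In B cells 7 of 11 were lower and 0 higher, beside 13.7% and 14.9% of genes. Among the 7 were Usp18, which removes the ubiquitin-like Isg15, with 34 UMIs in CP+EVs and 50 in CP (0.184-fold, 0.115 to 0.290), and Stat2 at 66.5 and 188 CPM. T cells had 0 of 11 past 1.5-fold, beside 7.41% of genes higher and 10.5% lower.

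Partners of guanylate-binding proteins in inflammasomes and pyroptosis were read from a list of 12. In monocytes or macrophages Casp4, the caspase that binds bacterial lipopolysaccharide, had 113 CPM in CP+EVs and 71.0 CPM in CP (1.59-fold, 1.43 to 1.78) and Aim2, a DNA sensor, 58.9 and 36.7 CPM (1.60-fold, 1.37 to 1.87), while Nlrp3, Il18 and Ninj1 were at least 1.5-fold lower. With 2 of 12 higher and 3 lower, beside 14.7% and 23.3% of all genes, neither count stood apart from the background. In fibroblasts 8 of 12 were lower and 0 higher, beside 19.9% and 14.8% of genes. Il1b, at 25.7 CPM in CP+EVs and 362 CPM in CP, and Nlrp3, at 5.56 and 108 CPM, led there. In T cells, too, Il1b had 44.7 CPM in CP+EVs and 371 CPM in CP, beside neutrophil markers that summed to 32.9 and 1091 CPM in T cells. Their part in these values was not tested.

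Genes that attach guanylate-binding proteins to membranes or to conjugation systems were read from a list of 14. In monocytes or macrophages 0 of 14 were higher and 2 lower (Atg16l1 and Icmt), beside 14.7% and 23.3% of genes. In fibroblasts 1 was higher (Gabarapl1, with 120 CPM in CP+EVs and 65.5 CPM in CP) and 2 lower (Gabarap and Rce1), beside 14.8% and 19.9%. In B cells 2 of 13 were higher (Fntb and Pggt1b) and 1 lower (Rce1), beside 14.9% and 13.7% of genes. In T cells 0 of 13 were higher and 1, Atg7, was lower, beside 7.41% and 10.5%. In dendritic cells 0 of 12 were higher and 4 lower (Atg3, Atg16l1, Gabarapl2 and Rce1), beside 12.6% and 20.1% of genes. In plasma cells 1 of 10 was higher and 3 lower, beside 8.01% and 27.4%, in mesothelial cells 2 of 9 were higher (Atg5 and Gabarapl1) and 1 lower (Atg12), beside 16.5% each, and in acinar barcodes 0 of 13 were higher and 9 lower, beside 8.53% and 65.8%. Of the other large GTPases, Gvin1 lay at the 1.5-fold limit in monocytes or macrophages, with 26.7 CPM in CP+EVs and 17.8 CPM in CP (1.498-fold, 1.19 to 1.88), and in B cells it was lower, with 35.2 and 53.8 CPM.

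Over the 22 points made by class and library, each member's level was compared with the summed family on log2(CPM + 10). Pearson's r, given as a description of points that share libraries and free RNA, was 0.918 for Gbp2, 0.897 for Gbp7, 0.890 for Gbp3 and 0.867 for Gbp5, 0.815 for Gbp9, 0.754 for Gbp6, 0.696 for Gbp4 and 0.640 for Gbp8. Gbp2b had 0.188. The sum contains the member itself, so its own UMIs raise these values in part, most for abundant members, and their order is no ranking of likeness. With single other members Gbp2 had r from 0.146 for Gbp2b to 0.803 for Gbp3. Every pair with Gbp2b had a lower r than any pair without it, so Gbp2b was the member least like the rest by pairs too. Among 9903 other genes with at least 500 UMIs the 8 nearest to the summed family were Klf2 (0.871), Ifi47 (0.863), Herc6 (0.842), Xaf1 (0.816), Crim1 (0.804), Tgtp1 (0.801), Tapbp (0.792) and Pdlim5 (0.777).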

How the data were processed

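Single cells of mouse pancreas were captured on BD Rhapsody and sequenced as paired reads, per the labels' protocols. The authors deposited 1 matrix per library of UMI counts, which are whole numbers with no scaling, per the file headers. The submitters' processing notes name CASAVA 1.8, UMI-tools, Seurat and mm10. Which aligner, annotation and cell calling were used is not given here.

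Barcodes under 200 genes or over 25% mitochondrial UMIs were removed, which left 8799 in CP+EVs and 13409 in CP. A barcode entered a class with at least 3 UMIs of at least 2 of its markers (20 lists, 151 genes), a Poisson tail under 0.0001 against the barcodes with the lowest share of those markers, and at least 20% of the excess of the class's 90th percentile barcode. It was set aside as mixed when another class reached over 50% of its score, and no other doublet filter was used. Barcodes in no class numbered 408 in CP+EVs (4.64%) and 1629 in CP (12.1%). The marker lists were trimmed and these thresholds chosen with the data in view. Members, lists and tests were chosen with earlier results of these data known.

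Sums of UMIs over the barcodes of a class and library are given as CPM with exact Poisson 95% intervals. Ratios are CP+EVs over CP with exact conditional intervals, log2 ratios add 0.5 to each sum, and shares have exact Clopper-Pearson intervals. The intervals and the floor of 3 counts cover counting error only. There is 1 library per group, so no p-value was made, and a gene counts as higher or lower from 1.5-fold on the log2 ratio. All 9 members are named, Gbp10 and Gbp11 as near copies, from each pathway list up to 4 measured genes with the largest absolute log2 ratio in the class, always Ifng, Ifngr1, Ifngr2 and Irf1, and the 8 genes of most like pattern. A further gene of the rule is not reported here. Other list genes and the genes nearest to Gbp2b are named after their values were seen. The calculations were tested on simulated counts. Python 3.11.15, numpy 2.4.6, pandas 2.3.3, scipy 1.17.1 and matplotlib 3.10.9 were used.

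Alternatives covered scaling, per-barcode means, thinning to 1000 UMIs, the gate, the barcode filters, the denominator, the summing of near copies, and the limits for lists. Leaving out shared barcodes, a minimum of 2000 UMIs and leaving out the barcode of 1 library with the most UMIs of the family or member were added after the data were seen.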

Additional observations from a re-analysis of the deposited data

How the results depend on the processing

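The summed family kept its direction under every alternative run in monocytes or macrophages (log2 ratio 1.37 to 1.66), dendritic cells (1.24 to 2.08), fibroblasts (0.72 to 1.01), mesothelial cells (0.59 to 0.91), plasma cells (0.28 to 1.09), B cells (-0.69 to -0.24) and T cells (-0.14 to -0.03). Values outside the counting interval were these. With median-of-ratios scaling, which moves the median of all genes by -0.17 in monocytes or macrophages, -0.12 in dendritic, -0.27 in plasma and -1.27 in acinar barcodes, monocytes or macrophages gave 1.66. Means of per-barcode values gave 1.41 in monocytes or macrophages, -0.39 in B cells, 0.72 in fibroblasts and 0.85 in mesothelial cells. Thinning to 1000 UMIs gave 1.37 in monocytes or macrophages, 1.43 in dendritic cells, -0.24 in B cells, 1.09 in plasma cells and 0.79 in fibroblasts. A doubled marker minimum gave 2.08 in dendritic cells, and mixed barcodes put back gave 0.91 in mesothelial cells. Without the CP+EVs barcode with the most family UMIs, an alternative added after the data were seen, dendritic cells gave 1.24. The B cell difference, -0.59, lies at the 1.5-fold limit and was under it by most alternatives, and the cause was not tested. Acinar barcodes reversed, from -0.67, to 0.60 under median-of-ratios scaling, 0.27 with enzyme and similar UMIs out of the denominator and 0.00443 with a doubled marker minimum. Thinning reversed Gbp3 in plasma cells to 0.54 and Gbp5 in acinar barcodes to -1.52. Gbp2b in monocytes or macrophages moved from 5.82 to 6.42 when thinned, and to 2.19 when summed with Gbp2. Of all single-member values 694 stayed within counting error and 58 moved. Of list counts 196 stayed within 1.5 times and 92 moved, and of shares of barcodes 13 moved with full depth. Depth limits Gbp6, Gbp8 and Gbp10 in small classes, where a count of 0 allows up to 5.42 CPM in dendritic cells of CP+EVs. No paired analysis was possible because each group has 1 library.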

Other observations

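Classes too small for the comparisons gave these summed levels. Type 2 innate lymphoid barcodes had 617 CPM (484 to 774, 41 barcodes) in CP+EVs and 448 CPM (346 to 571, 33 barcodes) in CP. Endothelial barcodes had 1690 CPM (93 barcodes) in CP+EVs and 1076 CPM (919 to 1251, 13 barcodes) in CP, and natural killer barcodes 649 CPM (62 barcodes) and 512 CPM (399.7 to 646, 45 barcodes). Neutrophil barcodes had 651 CPM (436 to 935, 23 barcodes) in CP+EVs and 413 CPM (2527 barcodes) in CP. The mixed barcodes held 867 CPM in CP+EVs and 659 CPM in CP, and barcodes in no class 648 and 406 CPM.

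The genes whose pattern over the 22 points of class and library was nearest to Gbp2b were others than those nearest to the family: F10 (r = 0.830), Gfra2 (0.806), Slamf8 (0.784), Areg (0.784), Ear2 (0.782), Prelid2 (0.745), Ms4a8a (0.731) and Fcrls (0.725). Gbp2b had 129 CPM at 1 of these points, monocytes or macrophages of CP+EVs, and at most 17.7 CPM at the others.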
